A study of Homo sapiens with 6 samples.

Results

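The genes of homologous recombination, the Fanconi anemia pathway and the damage signalling that feeds both were followed in H526 cells, a human small cell lung cancer line, before and after selection for resistance to onvansertib, an inhibitor of the mitotic kinase PLK1. They were chosen by name from a list of 42 symbols, and all 42 had a row among the 62710 genes of the table and passed the minimum mean value of 10 over the 6 libraries that left 16347 genes for testing. The parental group is H526 grown without selection, and the resistant group is H526 that was raised in onvansertib from 10 nM up to 75 nM. Each group had 3 libraries, numbered 1 to 3 in the parental and 7 to 9 in the resistant cells, from RNA harvested at 3 separate times. The resistant cells are described as 1 selected culture, so p-values measure the spread between harvests of a single line, and selection, the drug and the passage of time cannot be told apart. Whether the drug was in the medium at harvest is not given in the sources used here.

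Homologous recombination repairs a broken chromosome by copying the intact sister chromatid. The MRN complex senses and trims the break, the BRCA1, PALB2 and BRCA2 chain readies the exposed single strand, and strand exchange factors and motor proteins help it to pair with the sister. The Fanconi anemia pathway handles crosslinks between the strands: a core ligase with the E2 enzyme UBE2T attaches ubiquitin to the FANCD2 and FANCI pair, which then guides nucleases to the lesion. PLK1 phosphorylates BRCA2 in cycling cells. In small cell lung cancer, which is treated with platinum drugs, these genes are studied as determinants of drug response.

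Values are deposited gene counts after normalization between libraries, here called normalized values. Depth was between 22.3 and 28.5 M reads per library, and 3 reads, taken as the limit of detection, were worth between 2.67 and 3.23, which covers counting error only. Over the genes tested, Pearson's r of the log2 values was 0.982 to 0.985 between libraries of the same group (6 pairs) and 0.941 to 0.948 between groups (9 pairs), across genes, which are not independent replicates. A log2 fold change compares resistant with parental cells on the log2(value + 1) scale, is positive where resistant cells are higher, and was called when its Benjamini-Hochberg adjusted p by limma over all genes tested was under 0.05. All exact permutation tests were two-sided and could not go below p = 0.10 with 3 libraries against 3. As a check of identity, *POU2F3*, the tuft cell factor that marks the H526 subtype, had a mean value of 25809 ± 1178 in parental and 27273 ± 535 in resistant libraries (SD, n = 3) and was not called, and of the 7 tuft cell markers 4 were called higher and 2 lower, with a summed level of 71717 to 72630 in parental and 65736 to 67422 in resistant libraries. The leukocyte genes *PTPRC*, *CD3E* and *LYZ* and the endothelial gene *PECAM1* did not reach the minimum mean value, with *CD3E* listed at 0 in every library. The other 3 of 7 markers of further cell types, *COL1A1*, *COL1A2* and *VWF*, were called higher, with a summed level of the list of 370 to 516 in parental and 820 to 1034 in resistant libraries, and their part in the results was not tested. Beside them, the summed level of 6 neuroendocrine markers was 10850 to 11831 in parental and 3915 to 4586 in resistant libraries, with 4 of the 4 tested called lower.

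Most of the repair genes differed little between parental and resistant cells. Of 42 genes, 13 (31.0%) were called, against 37.7% of all genes tested. There were 7 that rose, against 17.8% of all genes, and 6 that fell, against 19.8%. The genes that rose were *BRCA2*, *RAD51B*, *RAD50*, *NBN*, *PALB2*, *RNF168* and *FANCD2*, and those that fell were *FANCI*, *TP53BP1*, *FANCF*, *BLM*, *MDC1* and *RBBP8*. The median log2 fold change of the 42 genes was 0.04, where that of all genes tested was -0.00, and the median absolute log2 fold change was 0.18, where that of all genes tested was 0.30. Only 4 of the 42, *BRCA2*, *RAD51B*, *FANCI* and *RAD50*, were called with an absolute log2 fold change of at least 0.5, against 22.4% of all genes tested. For 14 genes (33.3%) every library of 1 group lay above every library of the other, against 49.9% of all genes. The median pooled SD between libraries of a group was 0.12 on the log2 scale for the 42 genes and 0.15 for all genes tested. Among the 29 genes that were not called, the largest absolute log2 fold change was 0.31, that of *RAD52*, which anneals single strands.

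**Figure D1:**
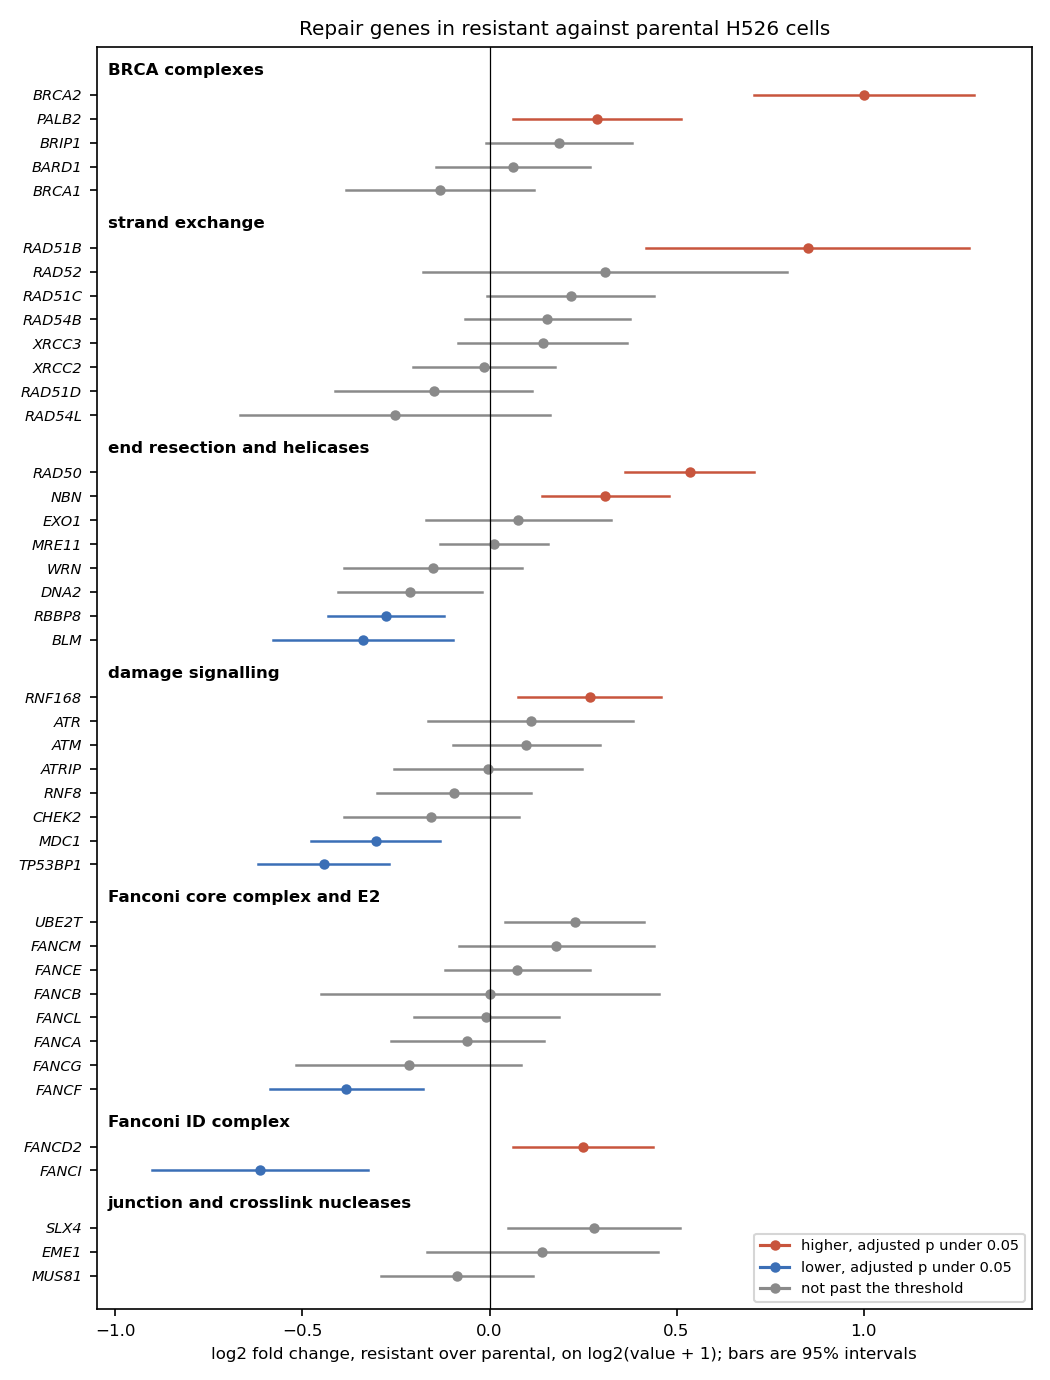
The log2 fold change of each of the 42 repair genes, resistant over parental, with its 95% confidence interval from limma, grouped by role and coloured by whether the gene was called higher, called lower or not called. *BRCA2* at 1.00 and *RAD51B* at 0.85 lie farthest to the higher side and *FANCI* at -0.61 farthest to the lower side.

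To place the called genes beside their upstream sequence, the 250 bases before the RefSeq start were searched on both strands for short words that recur in cycle-regulated promoters. A window was in the RefSeq table (GRCh38.p14) for 37 of the 42 genes and for 27305 genes in all. The 5 windows printed here, 5′ to 3′ on the gene's strand, belong to 2 genes that rose and 3 that fell, and were chosen to show windows without and with the words. Capitals mark a match to CCAAT, which reads ATTGG from the other strand, or to the E2F group, which holds TTCCCGC (reading GCGGGAA from the other strand) with TTGGCGC plus TTCGCGC followed by TTGCCGC. *BRCA2* is read on the plus strand at chr13:32315258-32315507, *RAD50* on the plus strand at chr5:132556727-132556976, *TP53BP1* on the minus strand at chr15:43510641-43510890, *FANCF* on the minus strand at chr11:22625824-22626073 and *BLM* on the plus strand at chr15:90717096-90717345.
BRCA2: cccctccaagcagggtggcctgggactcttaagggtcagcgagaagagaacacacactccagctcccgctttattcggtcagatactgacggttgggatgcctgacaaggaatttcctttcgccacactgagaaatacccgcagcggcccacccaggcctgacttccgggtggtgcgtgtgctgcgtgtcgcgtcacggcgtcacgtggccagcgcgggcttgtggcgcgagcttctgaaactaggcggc
RAD50: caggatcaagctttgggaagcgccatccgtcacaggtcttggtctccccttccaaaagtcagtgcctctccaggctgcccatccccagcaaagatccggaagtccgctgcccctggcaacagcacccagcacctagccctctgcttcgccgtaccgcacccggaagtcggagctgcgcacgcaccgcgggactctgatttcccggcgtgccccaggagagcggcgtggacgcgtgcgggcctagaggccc
TP53BP1: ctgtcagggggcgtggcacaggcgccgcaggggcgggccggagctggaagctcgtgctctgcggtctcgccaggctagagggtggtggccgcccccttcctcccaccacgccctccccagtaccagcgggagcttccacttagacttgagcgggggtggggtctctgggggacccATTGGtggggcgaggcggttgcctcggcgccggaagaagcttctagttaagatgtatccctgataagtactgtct
FANCF: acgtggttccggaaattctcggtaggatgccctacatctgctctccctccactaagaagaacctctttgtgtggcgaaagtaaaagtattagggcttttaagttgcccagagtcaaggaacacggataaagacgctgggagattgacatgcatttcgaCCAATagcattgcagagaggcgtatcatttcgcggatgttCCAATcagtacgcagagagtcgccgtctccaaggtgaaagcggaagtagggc
BLM: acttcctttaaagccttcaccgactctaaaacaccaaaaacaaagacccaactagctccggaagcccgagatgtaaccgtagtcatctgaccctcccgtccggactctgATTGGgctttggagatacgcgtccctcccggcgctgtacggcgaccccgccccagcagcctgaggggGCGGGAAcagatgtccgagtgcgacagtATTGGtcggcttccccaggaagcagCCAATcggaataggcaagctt
The windows of *BRCA2* and *RAD50* held none of these words, that of *TP53BP1* held 1 CCAAT, that of *FANCF* held 2, and that of *BLM* held 3 and 1 E2F word. CCAAT was found in 18 of the 37 windows (48.6%) and in 37.0% of all genes' windows. By call, it was in 1 of 6 windows of genes that rose, in 4 of 5 of genes that fell and in 13 of 26 of genes not called. An E2F word was in 10 of 37 windows (27.0%) and in 13.0% of all, with 0 of 6 among the genes that rose, 2 of 5 among those that fell and 8 of 26 among those not called. TTTGAA or its variant TTCGAA, the core of the CHR element of late cycle genes, was in 4 of 37 windows (10.8%) and in 17.2% of all. These are matches of letters in one window per gene, and binding was not measured.

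Of the 5 genes of the BRCA complexes 2 rose, *BRCA2* and *PALB2*. *BRCA2*, a mediator of strand exchange, lies on chromosome 13 from 32315086 to 32400268 (GRCh38). It had normalized values of 598, 612 and 857 in parental libraries 1, 2 and 3 and of 1319, 1454 and 1313 in resistant libraries 7, 8 and 9. Every resistant library was above every parental one, and parental library 3 was nearest to the resistant cells. The mean went from 689 ± 146 to 1362 ± 79.5 (SD, n = 3, log2 fold change 1.00, SE 0.13, 95% confidence interval 0.71 to 1.29, limma adjusted p = 0.000267). *PALB2*, the bridge between BRCA1 and BRCA2, had values of 536, 530 and 475 in parental and of 676, 610 and 595 in resistant libraries. These did not overlap either, and the log2 fold change was 0.29 (SE 0.10, limma adjusted p = 0.046). That call was lost whenever a library was left out, with adjusted p from 0.054 to 0.15 by limma. *BRCA1*, the ligase that starts the chain, had a mean of 1894 ± 214 in parental and 1732 ± 232 in resistant cells, and its log2 fold change of -0.13 had an interval from -0.38 to 0.12. Its partner *BARD1* had a log2 fold change of 0.06 and the helicase *BRIP1* one of 0.19, neither called.

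**Figure D2:**
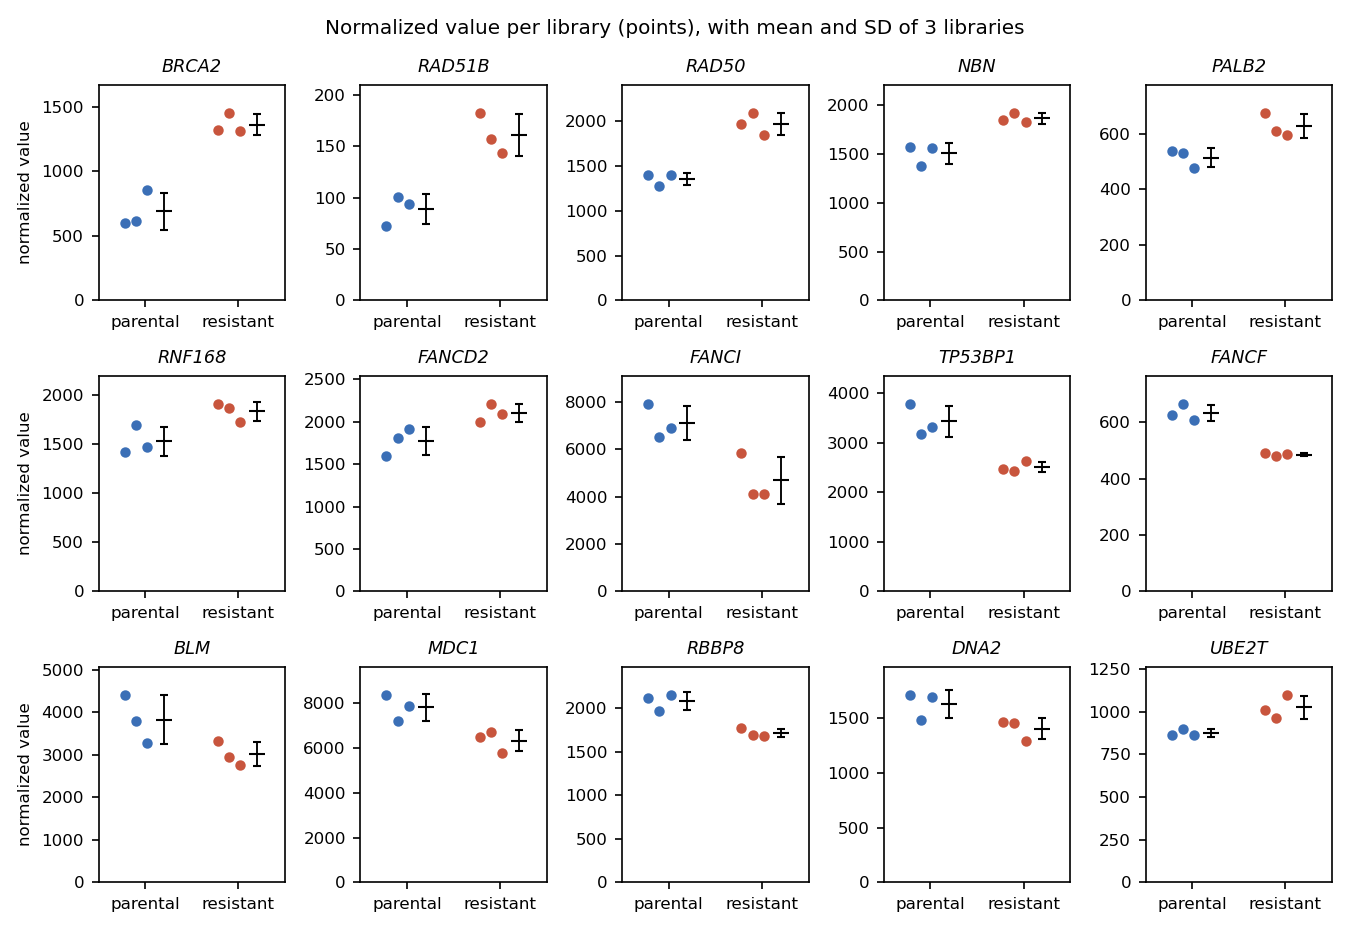
Normalized value of 15 repair genes in each library, parental in blue and resistant in red, with the mean and the SD of 3 libraries as bars; each axis starts at 0. *BRCA2* runs from 598 to 857 in parental and from 1313 to 1454 in resistant libraries, and of the genes shown *BLM* is the one whose groups overlap.

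Of the 8 strand exchange genes, *RAD51B* alone was called. *RAD51B*, a subunit of the BCDX2 paralog complex on chromosome 14 from 67819779 to 68730218, had low values, 72.6, 101 and 93.8 in parental and 183, 157 and 143 in resistant libraries. The groups did not overlap, and the mean went from 89.1 ± 14.7 to 161 ± 20.1 (SD, n = 3, log2 fold change 0.85, SE 0.19, limma adjusted p = 0.00652). The other subunits of that complex, *RAD51C*, *RAD51D* and *XRCC2*, had log2 fold changes of 0.22, -0.15 and -0.02, and *XRCC3*, which pairs with RAD51C, had 0.14. The motor proteins of strand exchange, *RAD54L* and *RAD54B*, had -0.25 and 0.15. Resistant library 9 decided the value of *RAD54L*. It had 1437, 1409 and 2399 in resistant libraries 7, 8 and 9, against 1791, 2380 and 1929 in parental libraries, so that library 9 was above all the parental ones and the other two below. Without library 9 the log2 fold change was -0.50 with an adjusted p of 0.010 by limma. *XRCC3* shares 76.7% of its exon bases with *KLC1* on the opposite strand and *RAD54B* 66.0% with *FSBP* on its own strand. *RAD54L* shares 19.9% with *LRRC41* on the opposite strand (mean value 5466, log2 fold change 0.07). Whether the counting used strand is not given in the sources used here, and the part of these partners was not tested.

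Of the 3 subunits of the MRN complex 2 rose and the other was not called. *RAD50*, its ATPase, on chromosome 5 from 132556019 to 132646349, had values of 1400, 1279 and 1394 in parental and of 1969, 2093 and 1843 in resistant libraries. With no overlap between groups, it went from 1357 ± 68.1 to 1969 ± 125 (SD, n = 3, log2 fold change 0.54, SE 0.08, limma adjusted p = 0.000464). *NBN*, the subunit that binds ATM, also rose, from 1503 ± 108 to 1861 ± 52.2, with a log2 fold change of 0.31 (limma adjusted p = 0.00972). *MRE11*, the nuclease, had 2328 ± 87.0 and 2348 ± 73.0, and its log2 fold change of 0.01 had an interval from -0.13 to 0.16. *RAD50* shares 76.9% of its exon bases with an unnamed gene on the same strand whose own mean value was 9.02.

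The resection factors and helicases that act after MRN were lower or not called. *RBBP8*, which encodes the MRE11 cofactor CtIP, fell from 2080 ± 100 to 1716 ± 48.5 (SD, n = 3, log2 fold change -0.28, limma adjusted p = 0.011), and its groups did not overlap. *BLM*, the helicase that unwinds for long resection and dissolves joined chromatids, had 4410, 3782 and 3268 in parental and 3313, 2942 and 2767 in resistant libraries. Parental library 3 lay just below resistant library 7, and the log2 fold change was -0.34 (SE 0.11, limma adjusted p = 0.032). Without parental library 1, and likewise without parental library 2, resistant library 8 or resistant library 9, *BLM* was no longer called, with adjusted p of 0.102, 0.065, 0.087 and 0.102 by limma. *DNA2*, the nuclease that works with BLM, did not overlap between groups but was not called, with a log2 fold change of -0.21 and an adjusted p of 0.078 by limma. *EXO1*, the other long range nuclease, had 0.08 and *WRN* -0.15.

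In damage signalling, the scaffolds of chromatin near a break were lower and the kinases were not called. *TP53BP1* encodes a protein that restrains resection and favours end joining, and it also acts with USP28 in the arrest that follows a long mitosis. It had values of 3789, 3175 and 3327 in parental and of 2480, 2435 and 2635 in resistant libraries. All resistant libraries lay below all parental ones, and it fell from 3430 ± 320 to 2517 ± 105 (SD, n = 3, log2 fold change -0.44, SE 0.08, limma adjusted p = 0.00153). *MDC1*, which holds the MRN complex and ATM at marked histones, fell too. Its values were 8387, 7191 and 7871 in parental and 6485, 6708 and 5790 in resistant libraries, with no overlap and a log2 fold change of -0.30 (limma adjusted p = 0.012). *RNF168*, the ubiquitin ligase whose mark recruits 53BP1, rose from 1528 ± 149 to 1836 ± 96.8 (log2 fold change 0.27, limma adjusted p = 0.033), while *RNF8*, the ligase before it, had -0.10. The *RNF168* call was lost without parental library 1 or 3 and without resistant library 7 or 8, with adjusted p from 0.092 to 0.108 by limma. *TUBGCP4*, which shares 28.8% of the exon bases of *TP53BP1* on the opposite strand, had a log2 fold change of -0.01. The log2 fold changes of the kinase genes *ATM*, *ATR* and *CHEK2* were 0.10, 0.11 and -0.16, and that of *ATRIP*, the partner of ATR, was -0.01. *CHEK2* has 7 annotated pseudogene copies, which were listed at 0 in every library, and how reads shared with them were assigned was not tested.

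In the Fanconi core complex with its E2 enzyme, 1 of 8 genes was called. *FANCF*, the adaptor that holds the core together, had 627, 667 and 610 in parental and 490, 481 and 487 in resistant libraries. The resistant values were close together and all below the parental ones, and it fell from 635 ± 29.1 to 486 ± 4.85 (SD, n = 3, log2 fold change -0.38, SE 0.09, limma adjusted p = 0.00846). The E2 gene *UBE2T* had 861, 900 and 860 in parental and 1009, 965 and 1099 in resistant libraries, which do not overlap, but its log2 fold change of 0.23 had an adjusted p of 0.054 by limma. The ligase subunit *FANCL* had -0.01, and the subunits *FANCA*, *FANCB*, *FANCE* and *FANCG* had -0.06, 0.00, 0.07 and -0.22. *FANCM*, the translocase that anchors the core to DNA, had 0.18.

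The 2 genes of the ID complex moved in opposite directions. *FANCD2* had 1591, 1809 and 1913 in parental and 1996, 2213 and 2093 in resistant libraries. *FANCI*, on chromosome 15 from 89243945 to 89317261, had 7918, 6501 and 6886 in parental and 5842, 4119 and 4110 in resistant libraries. Neither gene overlapped between groups. *FANCD2* rose (log2 fold change 0.25, SE 0.08, limma adjusted p = 0.040), and *FANCI* went from 7102 ± 733 to 4690 ± 997 (SD, n = 3, log2 fold change -0.61, SE 0.13, limma adjusted p = 0.00435). The *FANCD2* call was lost without parental library 1 or 2 and without each of the 3 resistant libraries, with adjusted p from 0.051 to 0.131 by limma, while *FANCI* kept its call in all 6 of these fits. Of the junction and crosslink nucleases none was called. *SLX4*, the scaffold of the nucleases, had 694, 718 and 799 in parental and 935, 963 and 791 in resistant libraries. Resistant library 9 lay just below parental library 3, and the log2 fold change was 0.28 (limma adjusted p = 0.056). *EME1* had 251, 204 and 237 in parental and 233, 259 and 269 in resistant libraries, which overlap, with a log2 fold change of 0.14. *MUS81*, with which it forms 1 nuclease, had -0.09. On the opposite strand, *LRRC59* (mean value 7562, log2 fold change -0.33) shares 16.4% of the exon bases of *EME1*. Likewise, *CFL1* (mean value 17183, log2 fold change -0.45) shares 13.9% of those of *MUS81*. Whether the counting used strand is not given, and the part of these partners was not tested.

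Ratios of partners of 1 complex were formed within each library. Of 8 partner pairs, 5 had ratios that did not overlap between groups. The share of such ratios among other gene pairs was not computed, and 49.9% of all single genes did not overlap. The value of *FANCD2* divided by that of *FANCI* was 0.201, 0.278 and 0.278 in parental and 0.342, 0.537 and 0.509 in resistant libraries, 1.82-fold higher in the latter. *BRCA2* over *PALB2* was 1.12, 1.16 and 1.80 in parental and 1.95, 2.38 and 2.20 in resistant libraries, 1.64-fold higher. *RAD50* over *MRE11* was 1.44-fold, *BRIP1* over *BRCA1* 1.25-fold and *NBN* over *MRE11* 1.23-fold higher. Each of these 5 ratios had an exact permutation p of 0.10, the smallest possible, and 0.16 adjusted over the 8 pairs, which this design could not bring under 0.05. The other ratios overlapped, with exact permutation p of 0.4 for *BARD1* over *BRCA1*, 0.5 for *ATRIP* over *ATR* and 0.3 for *EME1* over *MUS81*.

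**Figure D3:**
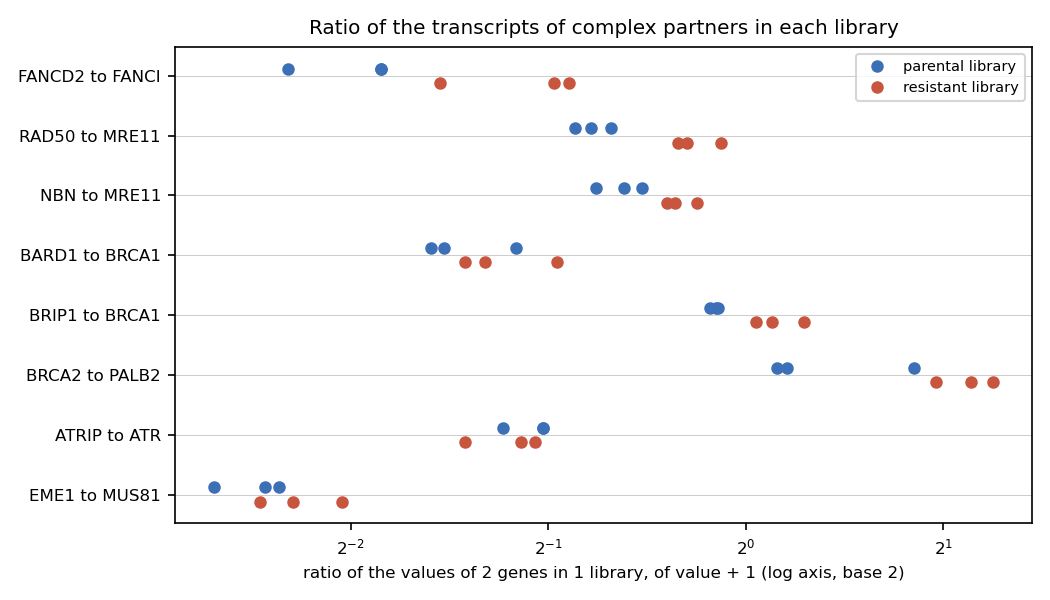
Ratio of the normalized values of 2 partner genes in each library, on a log axis, for 8 pairs, parental in blue and resistant in red. The groups are apart for 5 pairs, with the *FANCD2* to *FANCI* ratio between 0.201 and 0.278 in parental and between 0.342 and 0.537 in resistant libraries.

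Per kilobase of the canonical transcript, *FANCI* was the most abundant of the 42 genes in parental cells at 1500 normalized values per kb and stood at 991 in resistant cells. *MDC1* had 1122 and 908 per kb and *UBE2T* 995 and 1167 per kb, so that *UBE2T* led in resistant cells. The lowest in parental cells were *RAD51D* at 45.3 per kb, *RAD51B* at 57.2 and *BRCA2* at 57.7, and in resistant cells these were at 40.7, 103 and 114 per kb. *RAD51D* was also the lowest in resistant cells, followed by *WRN* at 66.5 per kb.

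For each repair gene, the median log2 fold change of the 50 nearest tested genes on its chromosome was set beside its own. *FANCI* and *BLM* lie close together on chromosome 15, and their neighbours were lower, with medians of -0.35 between 84.5 and 90.9 Mb around *FANCI* and -0.63 between 89.2 and 99.0 Mb around *BLM*. *POLG*, which overlaps 2.57% of the exon bases of *FANCI* on the opposite strand, had a log2 fold change of -0.63. The neighbours of *TP53BP1*, on the same chromosome, had a median of 0.26, opposite in sign to the gene. Those of *BRCA2* had 0.26 and those of *RAD51B* 0.37, in the direction of the gene but smaller. Around *RAD50*, *PALB2*, *RNF168* and *FANCD2* the medians were 0.09, 0.01, 0.07 and 0.04. *XRCC2* had neighbours at -0.52 while its own value was -0.02. After local median centring, which takes the median change of the 51 surrounding genes from each library, *BRCA2*, *RAD50*, *RBBP8*, *TP53BP1*, *FANCF* and *MDC1* stayed called. *FANCI* (-0.22, limma adjusted p = 0.24), *RAD51B* (0.46, limma adjusted p = 0.13) and *NBN* (0.10, limma adjusted p = 0.33) were no longer called, nor were *PALB2* (0.28, limma adjusted p = 0.053), *RNF168* (0.21, limma adjusted p = 0.097) and *FANCD2* (0.19, limma adjusted p = 0.11), whose values moved less. *BLM* turned to 0.25 and was not called (limma adjusted p = 0.098), while *XRCC2* at 0.48, *SLX4* at 0.40 and *DNA2* at -0.24 became called. In all, 11 of the 42 genes had the other sign after centring, among them *XRCC3* at -0.20 and *FANCM* at -0.17, which had been positive and were not called. The number of gene copies was not measured.

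**Figure D4:**
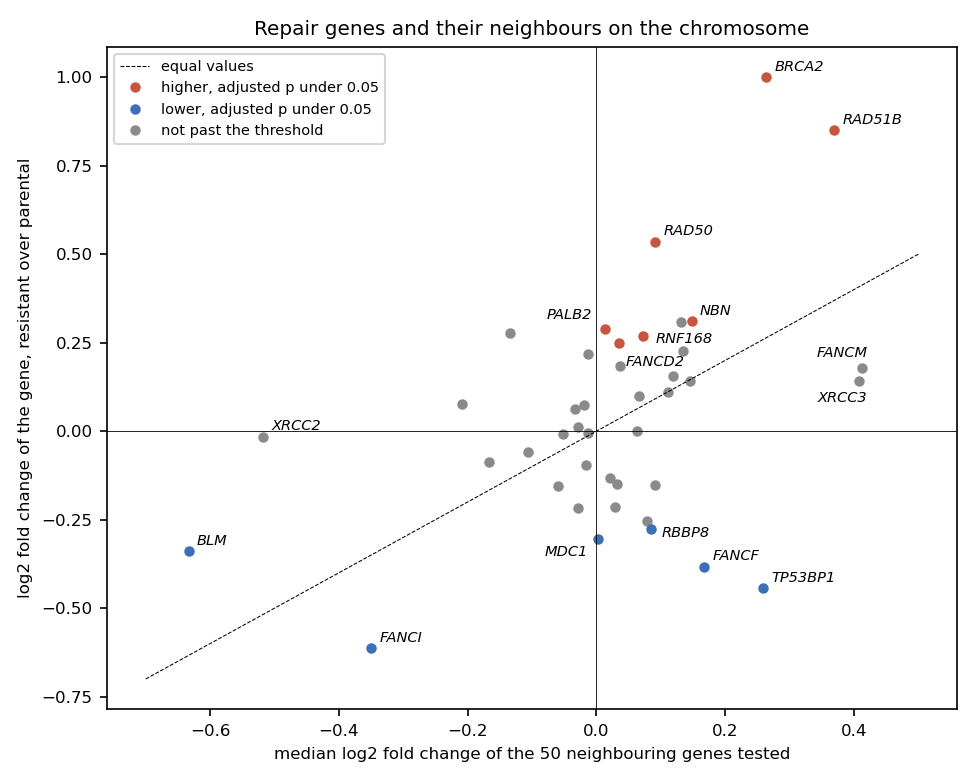
Log2 fold change of each repair gene against the median of its 50 neighbouring genes tested, with a dashed line of equal values. *TP53BP1* and *FANCF* lie below 0 with neighbours above 0, *BLM* and *FANCI* lie below 0 with neighbours below 0, and *BRCA2* lies at 1.00 with neighbours at 0.26.

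Other genes of the pathway were counted from a further list of 59, all tested. Of these, 18 were called, 6 higher and 12 lower, with a median log2 fold change of -0.04 (30.5% called). *TIMELESS*, which protects replication forks, fell from 4754 ± 165 to 2568 ± 4.01 (SD, n = 3, log2 fold change -0.89, limma adjusted p = 3.96e-06). *SEM1*, the small acidic partner of BRCA2 that is also a proteasome subunit, fell from 2626 ± 79.4 to 1455 ± 77.5, a log2 fold change of -0.85. *TOPBP1*, the activator of ATR, rose from 4328 ± 150 to 6004 ± 121, a log2 fold change of 0.47. Of 11 end joining genes 1 was called higher and 1 lower (18.2%). The polymerase *POLM* had a log2 fold change of 0.43 (limma adjusted p = 0.046), and the ligase *LIG4* had -0.27 (adjusted p = 0.056 by limma). Of 29 proliferation genes 2 were called higher and 7 lower (31.0%), with a median of -0.05, led by *MCM7* at -0.71, *AURKB* at -0.49 and *BIRC5* at -0.40. Over all genes tested the share was 37.7%, and whether the shares of these small lists differ from it was not tested. The 50 neighbours of *TIMELESS*, *SEM1* and *MCM7* were also lower, with medians of -0.61, -0.43 and -0.50, while those of *TOPBP1* had 0.13 and those of *AURKB* and *BIRC5* had -0.04 and 0.05. In bulk RNA, fewer cells in a cycle phase and less RNA per cell cannot be told apart, and the part of the cycling genes in the values of the repair genes was not tested.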

How the data were processed

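RNA from 3 parental and 3 resistant H526 libraries was compared. The authors trimmed reads with Trimmomatic 0.38, aligned and quantified them with RSEM 1.3.1 (with STAR) on GRCh38 with Gencode annotation, normalized the gene counts with DESeq2 1.30.0 and deposited the resulting signal per gene and library. The deposited signal is never negative and is not whole counts. Low values were whole reads in 31.3% to 57.8% of cases (tolerance 0.02 reads), so the study's count test was not repeated. Of 62757 rows, 47 second copies of pseudoautosomal genes were left out. Symbols, positions and canonical transcripts came from Gencode v44 (GRCh38) for 62639 of 62710 rows, matched without version.

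For genes with a mean of at least 10, limma 3.58.1 (R 4.3.3) was fitted to log2(value + 1) (lmFit, eBayes with an intensity trend, group as the only term), with Benjamini-Hochberg adjustment over all genes tested. The filter and the pseudocount of 1 touch low genes most. Ratios were tested with the exact permutation test on log2 ratios (scipy 1.17.1). The fit was tested on simulated data. The alternatives tried were other scalings (TMM factors written out in R, quantile), other filters (none, or a mean of 50), other pseudocounts (0.1 or 10), no trend, local median centring and each library left out. The members and lists were chosen with earlier results of these data known. All members are named: those called with an absolute log2 fold change of at least 0.5, or in a role without one the 2 with the smallest p, have their values in every library, and from each further list the 3 with the smallest p are named. A few other genes are not reported here. Values per library of some other members were added after their values were seen.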

Additional observations from a re-analysis of the deposited data

How the results depend on the processing

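Of the 13 called genes, 5 (*BRCA2*, *RAD50*, *RBBP8*, *TP53BP1* and *FANCF*) were called under all 14 alternatives and 9 in all 6 fits without 1 library. *MDC1* lost its call only without the trend (adjusted p = 0.064 by limma). Of the genes not called, 7 were called under at least 1 alternative. The log2 fold changes of *BLM* (0.25) and *XRCC2* (0.48) turned positive under local median centring, where 11 of the 42 genes had the other sign. Of these, *BLM* was the only one called in the main fit. After centring *BLM* was not called and *XRCC2* was. Without the trend, 8 of the 42 genes were called, 4 of them higher, with 11 other pathway genes, 1 end joining gene and 5 proliferation genes. The share of all genes tested was lower in that fit too, at 31.0% against 37.7% in the main one. With local median centring 4 were called higher, and 1 end joining gene was called, as it was with no filter. Centring gave a share of 30.3% over all genes, and no filter gave 20.4% of 28633 genes. With quantile normalization the median of the 42 genes was 0.074, and 10 were called higher and 6 lower, beside 37.3% of all genes called. With 1 library left out, 9 to 12 of the 42 were called and 4 to 6 higher, 1 to 3 end joining genes were called, and the median ranged from 0.010 to 0.052. The share of all genes called in these fits is not set beside these counts. They therefore do not show whether calls were lost among the 42 in particular or among all genes. The causes of these shifts were not tested. No paired analysis was possible because the libraries of the 2 groups share no replicate number. The labels do not tie a parental and a resistant library to the same harvest. The study calls the parental and resistant cells matched, and any pairing by harvest is left out of the fit. Depth limits *RAD51B* most among the called genes, at 72.6 in parental library 1 where 3 reads are worth 2.67.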
